A study of Rattus norvegicus with 9 samples.

Results

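The comparison described here set the transcriptome of rat bone marrow-derived dendritic cells (BMDCs) treated with total lipids (TLs) of Lactobacillus johnsonii N6.2, a Gram-positive gut bacterium, against that of BMDCs treated with α-galactosylceramide (α-GalCer), a synthetic glycolipid. It rests on 3 TL libraries and 3 α-GalCer libraries of the 9 in the series, and on all genes that passed a filter on low counts, 12602 of the 32545 counted. The BMDCs came from wild-type Sprague-Dawley rats of 8 to 12 weeks, were differentiated from marrow progenitors in GM-CSF plus FLT3L, and were stimulated on day 7 for 6 h. TLs were added in PBS at 600 ng/mL and α-GalCer at 100 ng/mL in DMSO diluted with PBS, and the remaining group, the vehicle control, received DMSO and PBS alone. Dose and solvent thus differed between both lipids, and an effect of the TLs cannot be told apart from that of the absence of DMSO or from that of the larger mass of lipid. The culture is a model without sorting, so it can hold other myeloid cells, and no T cell was added to it.

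Dendritic cells meet lipids of bacteria in distinct ways. Toll-like receptors at the cell surface bind lipopeptides and other bacterial lipids and switch on NF-κB and AP-1, transcription factors that drive cytokine, chemokine and costimulatory genes. Glycolipids such as α-GalCer are instead loaded in lysosomes on CD1d, an antigen-presenting molecule, and are recognised by the T cell receptor of invariant natural killer T (NKT) cells, which then signal back to the dendritic cell.

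Total counts ranged from 15190820 to 20591105 per library, and 3 counts, taken as the floor of detection, equal 0.146 to 0.197 CPM in the TL and 0.168 to 0.183 CPM in the α-GalCer libraries. On the first principal component of the 6 libraries, with 63.7% of the variance, the TL libraries scored between −35.6 and −34.3 and the α-GalCer libraries between 33.6 and 36.5. On the second, with 10.4%, α-GalCer replicates 2 and 3 lay apart at 24.8 and −18.4, with the others between −7.69 and 11.2. When all 9 libraries were used, the first component held 54.1% of the variance. There the α-GalCer libraries scored between −25.1 and −22.0, close to the vehicle control at −23.2 to −20.8. The TL libraries scored between 44.8 and 45.6. The study describes 3 independent assays, while the labels do not say whether replicates came from separate animals, so the p-values measure the spread between these libraries only.

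BMDCs treated with TLs and BMDCs treated with α-GalCer differed in the transcript levels of many genes. A gene was called a DEG when edgeR's quasi-likelihood test gave an adjusted p under 0.01 with a log2 fold change (log2FC) beyond 0.3 in either direction. Of the genes tested 20.3% were called, 9.85% as higher with TLs (1241 genes) and 10.5% as lower (1321 genes). In the same fit, α-GalCer against the vehicle control gave log2FC of 0.14 for Cxcl1, −0.09 for Cd14 and −0.04 for Cyp2s1 (adjusted p = 0.999936 each in edgeR). TLs against the vehicle control gave 6.26, 2.43 and −2.63. For these genes the comparison is thus close to one of TLs against the vehicle control. In each of the 2562 DEGs the 3 TL libraries lay wholly above or wholly below the 3 α-GalCer libraries, as they did in 51% of all genes tested. For a DEG described below, a lack of overlap thus adds nothing to its call. The sizes were unequal: the median log2FC of the DEGs was 0.66 upward and −0.64 downward, with 362 genes (2.87% of all tested) at 1 or above, 293 (2.33%) at −1 or below, 109 above 2 against 51 below −2, and 32 above 4 against 3 below −4. With upper quartile normalization 324 genes stood at 1 or above and 363 at −1 or below, so which side held more at that size turned with the scaling. Genes at 100 CPM and over with α-GalCer were more often higher (347 of 2173) than lower (227), whereas genes from 1 to 10 CPM were more often lower (249 of 3105) than higher (161). Of 906 genes under 1 CPM with α-GalCer, 57 were higher, up to a log2FC of 10.87, and 7 lower. Such genes can pass the filter through the TL libraries alone, so the counts of the largest rises are set in part by the filter. Genes called higher took 24.7% of the CPM in each TL library and between 14.8 and 15.4% in the α-GalCer libraries, which describes genes picked for that difference. In the vehicle libraries the same genes took between 15.0 and 15.5%. In bulk RNA, fewer cells of a kind and less of a transcript per cell cannot be told apart. With upper quartile normalization the split turned to 1000 higher and 1742 lower.

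**Figure D1:**
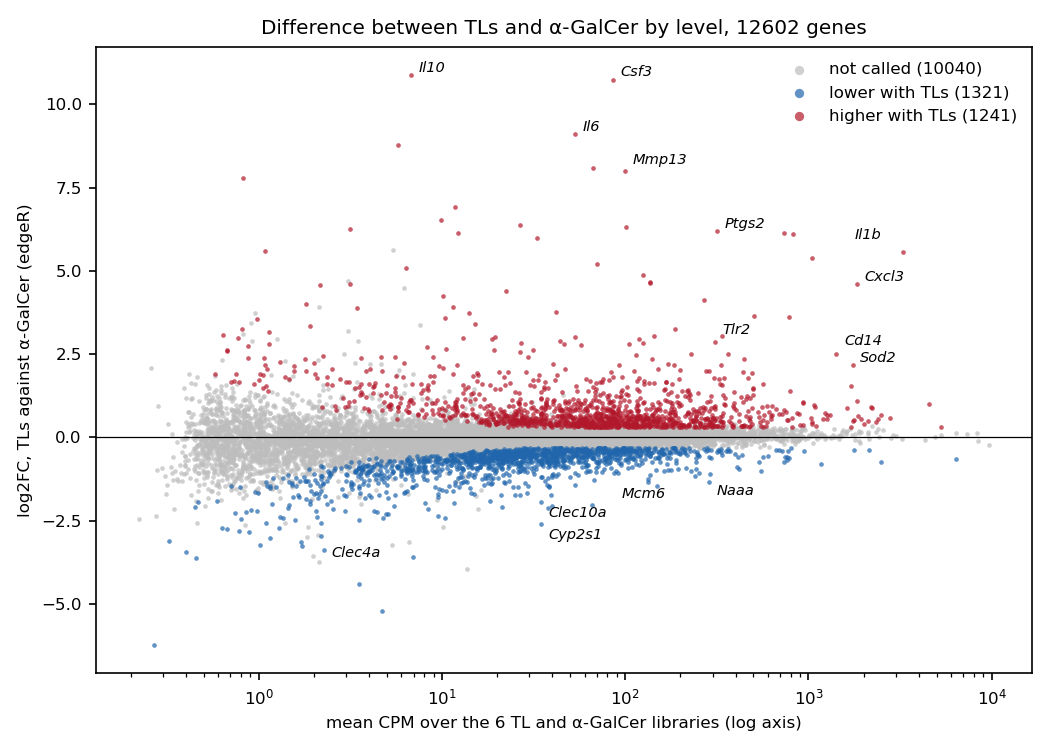
log2FC of TLs against α-GalCer in edgeR (y axis) by the mean CPM of the 6 libraries (x axis, log scale) for 12602 genes, with 1241 called higher in red, 1321 called lower in blue and 10040 not called in grey. The points above a log2FC of 4 outnumber those below −4, at 32 against 3. Genes under 1 CPM with α-GalCer, which can pass the filter through the TL libraries alone, gave 57 higher and 7 lower calls.

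Gene symbols were at hand only for genes that the study had called between TLs and the vehicle control, with the same TL libraries, so that 1839 of the genes tested could be named. Of these named genes 75% were called here, 37.8% as higher and 37.1% as lower, against 11% of the genes without a symbol (5.06% higher and 5.93% lower). TL and α-GalCer libraries did not overlap in 92.9% of the named genes and in 43.9% of those without a symbol. The counts over gene lists given below are to be read against those shares, and they are no independent evidence of a direction. Where a list other than the cell type markers had 0 members on one side in edgeR, it also had 0 there at an unadjusted p under 0.05, in DESeq2 and in limma-voom, except that 1 mitotic gene was higher at that p and in DESeq2. Levels are CPM, reads of a gene relative to the TMM-adjusted depth of the library, in the order of replicates 1, 2 and 3, and the error of a log2FC is its standard error (SE).

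Transcripts of interleukins and growth factors, the secreted signals by which dendritic cells direct other immune cells, had the highest median log2FC among the lists. Of 28 tested members of this list, 23 rose, 4 fell and 1 was not called, with a median log2FC of 2.05 against −0.019 over all genes tested. Il1b, which encodes the inflammasome substrate IL-1β, was at 6342, 6572 and 6249 CPM in the TL libraries and at 125, 145 and 133 CPM in the α-GalCer libraries. The groups were far apart, with a log2FC of 5.57 (SE 0.12, adjusted p = 1.21e-10 in edgeR). Il1a, the gene of the alarmin IL-1α, was at 1675, 1617 and 1595 CPM with TLs and 21.3, 27.5 and 21.7 CPM with α-GalCer, which made it 69.3-fold higher (log2FC 6.12, SE 0.11). The antagonist of both cytokines moved as well but by less: Il1rn was at 2554, 2518 and 2397 CPM with TLs and 1116, 1271 and 1124 CPM with α-GalCer, a log2FC of 1.09 (SE 0.066).

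Several cytokine genes were close to silent with α-GalCer and in the vehicle control. Il6, the gene of the acute-phase cytokine IL-6, had 98.3, 122 and 97.1 CPM with TLs, 0, 0.0544 and 0.490 CPM with α-GalCer and 0.410, 0.114 and 0.114 CPM in the vehicle control. Its log2FC of 9.10 (SE 0.36, adjusted p = 1.67e-08 in edgeR) rested on few α-GalCer counts and was 11.54 without α-GalCer replicate 3. Csf3, which encodes the granulocyte growth factor G-CSF, had 154, 182 and 178 CPM with TLs, 0.174, 0 and 0.109 CPM with α-GalCer and 0.0585, 0 and 0.114 CPM in the vehicle control, with a log2FC of 10.74, or 11.44 without α-GalCer replicate 1. Csf2, the gene of GM-CSF, a factor that was itself in the culture medium, rose from 0.174, 0.109 and 0.272 CPM to 21.2, 27.4 and 22.01 CPM (log2FC 6.93, SE 0.35). For Il17f, which encodes a cytokine that acts on epithelium, the levels were 24.4, 24.95 and 22.8 CPM with TLs and 0.291, 0.598 and 0.109 CPM with α-GalCer, a log2FC of 6.14 that became 6.89 without α-GalCer replicate 2. Il10, the gene of an anti-inflammatory interleukin, was read at 13.04, 13.02 and 14.7 CPM with TLs and at 0 in every α-GalCer library, which put it at least 243-fold above a floor of 3 counts over the group. Sfrp2, the gene of a secreted antagonist of Wnt signals, is named after its values were seen: it had 103 counts with TLs against 2 with α-GalCer, which gives a ratio of 57.7 (95% interval from counting error alone, 15.6 to 482).

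Growth factors of other families moved in both directions. Inhba, which encodes the activin A subunit, was at 273, 260.3 and 250.5 CPM with TLs against 12.4, 8.38 and 10.3 CPM, and Ereg, the gene of the EGF receptor ligand epiregulin, at 43.7, 41.8 and 42.4 CPM against 1.51, 2.61 and 1.96 CPM. Both sets of libraries were clear of each other, with log2FC of 4.66 (SE 0.20) and 4.38 (SE 0.16). Named after their values were seen, the members that fell were Hgf (hepatocyte growth factor, log2FC −1.38), Igf1 (insulin-like growth factor 1, −0.98) and Il16 (a chemoattractant of CD4+ cells, −0.94). The fourth, Il18, is described with the signals to NKT cells.

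Chemokines, which guide leukocytes into tissue, were higher with TLs. Of 16 tested, 14 rose, 0 fell and 2 were not called, with a median log2FC of 1.98. Summed over the list they took 13190 to 13988 CPM in the TL libraries and 1975 to 2239 CPM in the α-GalCer libraries. Among the ligands of the neutrophil receptor CXCR2, Cxcl1 was at 1389.7, 1529 and 1452 CPM with TLs and 21.03, 22.3 and 19.1 CPM with α-GalCer, and Cxcl2 at 1954, 2093 and 2069 CPM and 45.1, 48.4 and 52.8 CPM. No library of one group came near those of the other, and the log2FC were 6.13 (SE 0.12) and 5.38 (SE 0.11). Cxcl3 was already read at 139, 163 and 138 CPM with α-GalCer and at 3423, 3628 and 3597 CPM with TLs (log2FC 4.60, SE 0.097), while Cxcl6 went from 0.523, 0.979 and 0.381 CPM to 51.7, 55.2 and 52.00 CPM (log2FC 6.38, SE 0.23). The macrophage inflammatory protein genes followed: Ccl3 was at 1343, 1544 and 1457 CPM with TLs and 109.8, 123 and 125 CPM with α-GalCer, and Ccl4 at 484, 518 and 531 CPM and 26.3, 34.4 and 27.4 CPM, with log2FC of 3.60 (SE 0.090) and 4.12 (SE 0.10). The monocyte attractant Ccl2 had the smallest of these differences by fold, with 2537, 2602 and 2512 CPM against 808, 899 and 939 CPM and a log2FC of 1.53 (SE 0.082). Ccl20, the ligand of CCR6, had 556 counts with TLs and 1 with α-GalCer, which gives a ratio of 622 (95% interval from counting error alone, 111 to 24629). The members not called were Ccl5 (log2FC 1.07) and Cxcl11 (1.74), named after their values were seen.

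**Figure D2:**
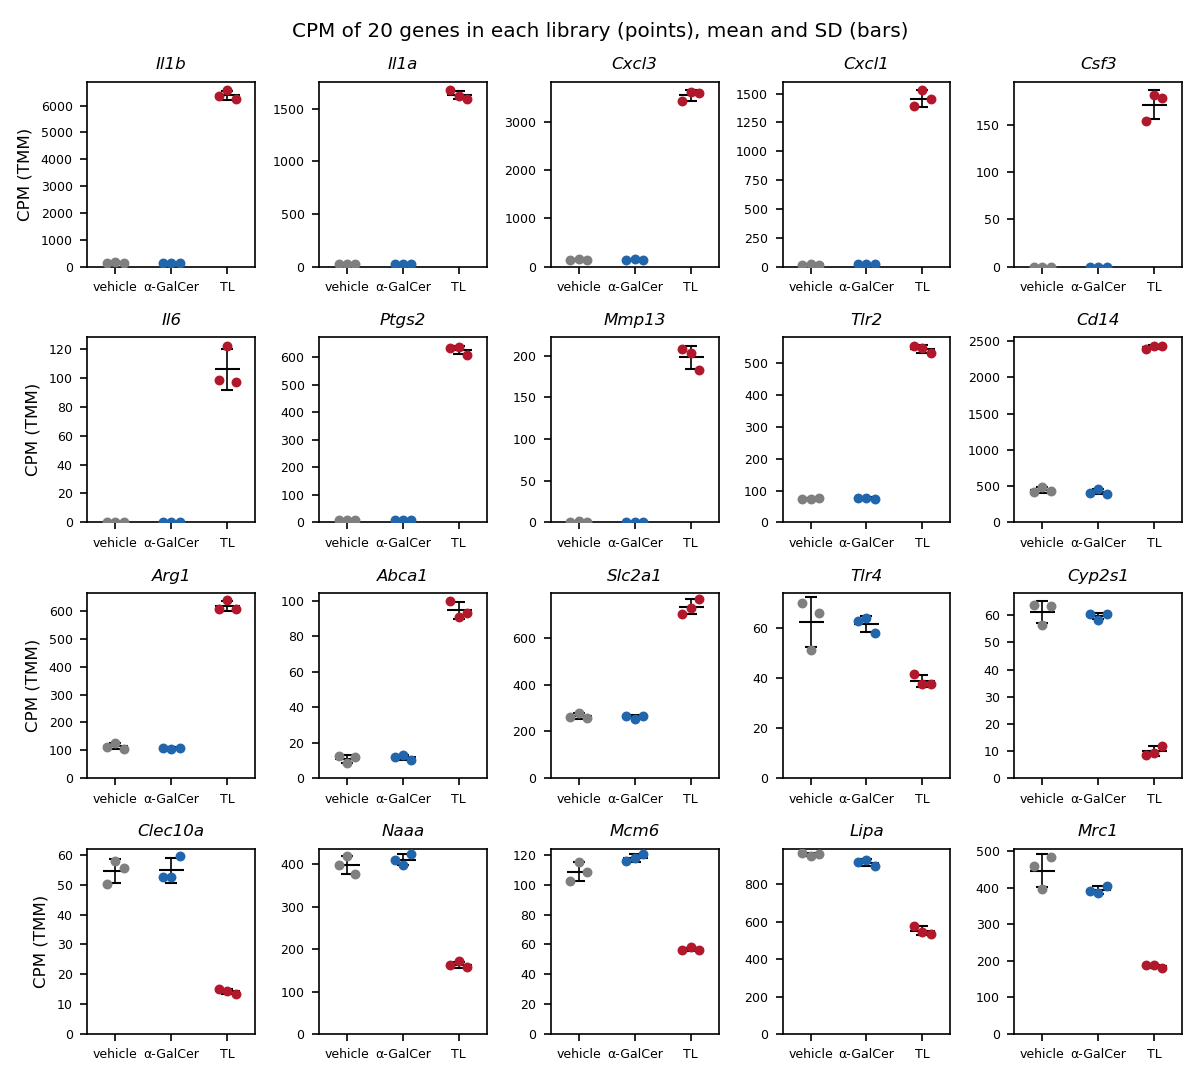
CPM at the TMM-normalized library size (y axis, linear and from 0) of 20 genes in each of the 3 vehicle, 3 α-GalCer and 3 TL libraries, as points with the mean and the SD as bars. In each of the panels the TL points lie clear of the α-GalCer points, above them in the first 13 genes and below them in the last 7.

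Receptors that sense bacterial products moved in opposite directions. Of 16 tested Toll-like and NOD-like receptors and adaptors, 9 rose, 6 fell and 1 was not called, with a median log2FC of 1.05. Tlr2, which encodes the receptor of bacterial lipopeptides, was at 554, 548 and 530.4 CPM with TLs and 76.5, 77.4 and 72.1 CPM with α-GalCer, a 7.22-fold difference (log2FC 2.85, SE 0.054) with replicates that lay close together. Cd14, the gene of a co-receptor that hands lipids to Toll-like receptors, had 2388, 2436 and 2436 CPM and 408, 465 and 396 CPM, a log2FC of 2.52 (SE 0.077). Genes of cytosolic sensors rose too: Nod2, a sensor of muramyl dipeptide, by a log2FC of 2.07 (SE 0.11), Nlrp3, the sensor of an inflammasome, by 1.99 (SE 0.053), and Nlrc4, which responds to flagellin through its partners, by 1.61 (SE 0.065). Tlr7, an endosomal receptor of single-stranded RNA, rose by 1.70 (SE 0.10), from 53.4, 62.5 and 48.3 CPM to 188, 177 and 168 CPM. Irak2 and Irak3, kinases of the Toll-like receptor complex of which Irak3 acts as a brake, rose by 1.82 and 1.51 (SE 0.062 and 0.072), and Ripk2, the kinase below Nod1 and Nod2, by 0.59 (SE 0.055).

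The sensors that fell included those of lipopolysaccharide and double-stranded RNA. Tlr4, the receptor of lipopolysaccharide, was at 41.5, 37.5 and 37.4 CPM with TLs and 62.7, 63.98 and 57.9 CPM with α-GalCer, a log2FC of −0.66 (SE 0.11). Tlr3, which binds double-stranded RNA, was 2.80-fold lower (log2FC −1.49, SE 0.13), at 14.5, 10.97 and 13.1 CPM against 33.1, 40.4 and 34.98 CPM. Cd180 and Ly86, which encode a Toll-like receptor homologue and its partner MD-1, had log2FC of −1.54 (SE 0.14) and −0.84 (SE 0.13). Pycard, the adaptor that links Nlrp3 to caspase-1, moved in the opposite direction from Nlrp3, with a log2FC of −0.88 (SE 0.11). Nod1, a sensor of Gram-negative peptidoglycan, had −0.44 (SE 0.091, edgeR's adjusted p = 0.00335), a call that was lost without TL replicate 2 or α-GalCer replicate 1 or 2, at −0.36, −0.38 and −0.45. For Tlr8, with a log2FC of −0.29, the 95% interval of −0.63 to 0.05 reached across 0.

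Few genes of the CD1d pathway could be followed. Of 28 listed, 6 had a symbol and were tested, and Cd1d1 was not among them. Of the 6, 0 rose, 2 fell and 4 were not called. Lipa, which encodes lysosomal acid lipase, was at 577, 544 and 532 CPM with TLs and 919.6, 931 and 897 CPM with α-GalCer, with no overlap and a log2FC of −0.73 (SE 0.048). For Ap2m1 and Ap3b1, which encode subunits of adaptors that sort membrane proteins to endosomes and lysosomes, the 95% intervals of the log2FC were −0.15 to 0.13 and −0.20 to 0.12. Glb1, the gene of β-galactosidase, had −0.29 (SE 0.062) and was under the fold threshold, which it passed with upper quartile normalization (−0.36) and without α-GalCer replicate 1 (−0.34), and Lrp1, a lipoprotein receptor gene, had −0.17 (SE 0.14).

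Genes of the signals that dendritic cells give to NKT cells were mostly higher with TLs than with the CD1d ligand. Of 11 tested, 10 rose and 1 fell, with a median log2FC of 1.39. Their summed level with α-GalCer, 682 to 763 CPM, was near that of the vehicle control, 731 to 744 CPM. With TLs it was 1757 to 1794.5 CPM. Il12b, which encodes the p40 chain of IL-12, was at 14.3, 15.4 and 13.3 CPM with TLs and 2.56, 2.45 and 1.53 CPM with α-GalCer, a log2FC of 2.72 (SE 0.24, adjusted p = 8.73e-06 in edgeR). Cd40, the costimulatory receptor bound by CD40 ligand of T cells, was at 45.3, 49.6 and 50.7 CPM and 13.6, 15.1 and 14.98 CPM, and Tnfsf15, the gene of the cytokine TL1A, at 33.1, 33.1 and 33.4 CPM and 7.15, 4.52 and 4.52 CPM. Both were clear of overlap, with log2FC of 1.73 (SE 0.11) and 2.62 (SE 0.21). Icam1, an adhesion ligand of LFA-1, rose by 1.61 (SE 0.054), Slamf6, a receptor that pairs between cells, by 1.39 (SE 0.11), and Cd274, the gene of the inhibitory ligand PD-L1, by 1.38 (SE 0.11). Cxcl16, a ligand of the NKT cell receptor CXCR6, rose by 1.03 (SE 0.067), and Cd86, a ligand of CD28, by 0.63 (SE 0.099). Il18, whose cytokine acts with IL-12 on NKT cells, was the exception, at 30.8, 32.8 and 30.8 CPM with TLs and 47.00, 59.4 and 57.8 CPM with α-GalCer (−0.80, SE 0.12). The calls of Tnfsf9 (0.73) and Tnfsf18 (1.67), which encode the costimulatory ligands 4-1BBL and GITRL, were lost without TL replicate 2 or 3 or without α-GalCer replicate 1 or 2, at log2FC of 0.68 to 0.73 and 1.59 to 1.65, and for Tnfsf18, at 1.03, 1.23 and 1.33 CPM with TLs, also without TL replicate 1 (1.77) or α-GalCer replicate 3 (1.80), in DESeq2 (1.70) and with the replicate block in 6 libraries (1.69).

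**Figure D3:**
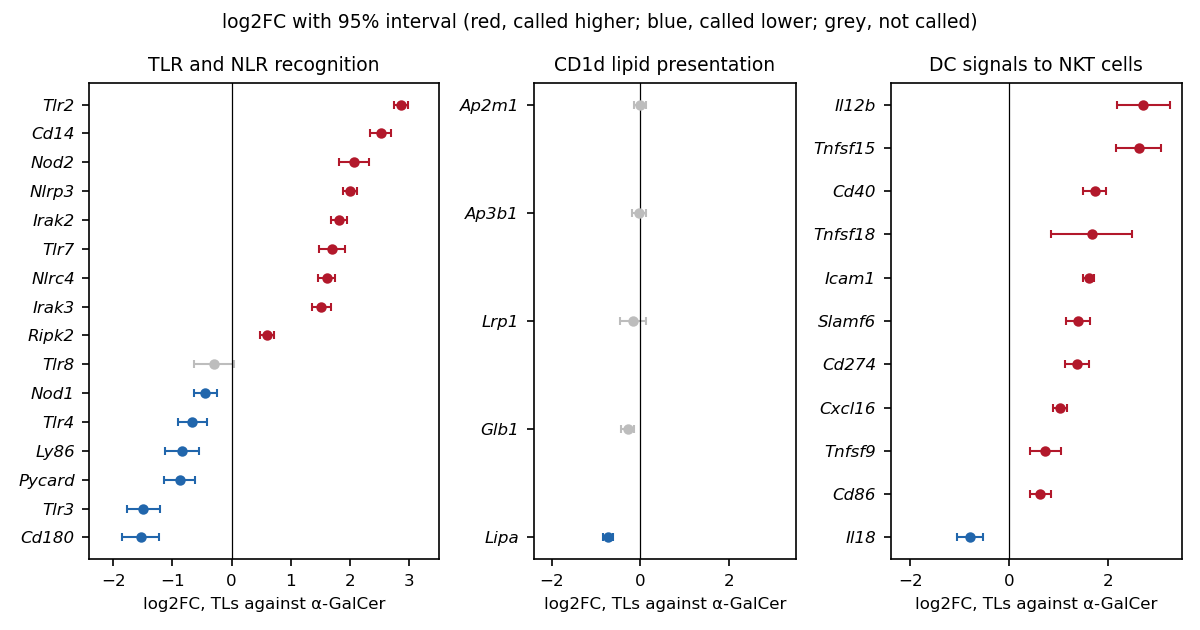
log2FC of TLs against α-GalCer with its 95% interval (x axis) for the members described (y axis) of 3 lists, in red where called higher, blue where called lower and grey where not called. Tlr2 lies at 2.85 and Cd180 at −1.54 in the first panel, the CD1d genes shown lie between −0.73 and −0.01, and in the third panel all but Il18 lie above 0.

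Tested genes of NF-κB subunits and regulators were mostly higher with TLs. Of 35 listed, 13 were not tested. The list holds proteins that restrain NF-κB and also activators, such as Map3k14 (0.55) and Malt1 (0.91), named after their values were seen. Of 22 tested, 21 rose, and Otulinl, which encodes a pseudoenzyme related to a deubiquitinase and is named after its values were seen, fell (−0.85). The largest rises were of brakes and feedback genes: Zc3h12a, the gene of the ribonuclease regnase-1 that degrades cytokine mRNAs, was at 323, 333 and 354 CPM with TLs and 36.4, 35.8 and 33.4 CPM with α-GalCer (log2FC 3.26, SE 0.067), and Nfkbiz, which encodes the nuclear inhibitor-like cofactor IκBζ, at 249.5, 262 and 258 CPM and 28.8, 34.7 and 29.7 CPM (3.05, SE 0.075). Nfkbia, the gene of the inhibitor IκBα, rose by 1.79 (SE 0.068), Bcl3, another IκB family member, by 1.68 (SE 0.070), and Tnip1, a ubiquitin-binding inhibitor, by 1.61 (SE 0.059). Subunit genes moved by less, with Nfkb1 at 713, 703 and 699 CPM against 299, 289 and 278 CPM (1.29, SE 0.051), and, named after their values were seen, Nfkb2 at 1.26, Relb at 0.93 and Rela at 0.58.

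AP-1 factors and the phosphatases and inhibitors of MAP kinases gave a like count, with 17 of 21 called higher, 3 lower and 1 not called, and a median log2FC of 0.95. Ier3, an immediate early gene, rose by 2.19 (SE 0.084), Maff, a small Maf factor, by 1.97 (SE 0.093), Fosl1, the gene of the AP-1 subunit FRA-1, by 1.96 (SE 0.11), and Spry2, an inhibitor of growth factor signals, by 1.90 (SE 0.14). Fosl1 was at 33.1, 32.6 and 32.3 CPM with TLs and 8.54, 8.43 and 8.23 CPM with α-GalCer. The members that fell, named after their values were seen, were Map2k6 (−2.43), Mapk14 (−0.60) and the zinc finger gene Egr2 (−0.62). Mapk14 encodes a p38 kinase and Map2k6 an activator of it.

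NF-κB binds sites of a known form, and the promoters of these genes were searched for it. RefSeq windows (GRCr8) from 250 bases before to 50 after each gene's start were matched by symbol, and 1401 of the 1839 named genes tested had exactly 1 window. The motif searched, on both strands, reads GGG, any 3 bases and TTCC. It was held by 5.37% of the 33469 windows of the whole table and by 5.87% of the 358 matched genes that were not called. It was held by 10.5% of 506 genes called higher, 6.52% of 537 called lower and 19.2% of the 52 with a log2FC above 2. By list it was in 6 of 10 chemokine windows, in 8 of 18 of the NF-κB list and in 0 of 17 of the AP-1 list. The interleukin and growth factor list, which had the highest median log2FC, held it in 2 of 16 windows. The list of Toll-like and NOD-like receptors held it in 1 of 11. Lysosomal genes, which fell more often than they rose, held it in 4 of 26. Cxcl11, which was not called, and Otulinl, which fell, were among the genes with a match. The 250 bases before the start of 5 genes described above are printed 5′ to 3′ on the strand of the gene, with every match in capitals, to show where the motif lies:
Tlr2 (chr2:171504558-171504807, minus strand): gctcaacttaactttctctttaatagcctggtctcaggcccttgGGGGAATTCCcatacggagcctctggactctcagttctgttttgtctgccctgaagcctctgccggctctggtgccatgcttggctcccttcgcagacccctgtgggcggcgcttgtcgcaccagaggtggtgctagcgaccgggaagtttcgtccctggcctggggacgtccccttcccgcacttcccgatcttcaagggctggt
Cxcl1 (chr14:17479322-17479571, minus strand): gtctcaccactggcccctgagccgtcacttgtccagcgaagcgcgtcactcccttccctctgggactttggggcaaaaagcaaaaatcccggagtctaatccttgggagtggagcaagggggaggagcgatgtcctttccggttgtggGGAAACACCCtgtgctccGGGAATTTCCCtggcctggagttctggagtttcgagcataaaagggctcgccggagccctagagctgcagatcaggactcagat
Cxcl2 (chr14:17467256-17467505, minus strand): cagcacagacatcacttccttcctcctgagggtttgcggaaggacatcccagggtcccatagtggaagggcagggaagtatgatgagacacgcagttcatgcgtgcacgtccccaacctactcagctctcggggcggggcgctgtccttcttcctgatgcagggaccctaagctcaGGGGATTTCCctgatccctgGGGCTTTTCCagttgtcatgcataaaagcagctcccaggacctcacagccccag
Cxcl6 (chr14:17596418-17596667, minus strand): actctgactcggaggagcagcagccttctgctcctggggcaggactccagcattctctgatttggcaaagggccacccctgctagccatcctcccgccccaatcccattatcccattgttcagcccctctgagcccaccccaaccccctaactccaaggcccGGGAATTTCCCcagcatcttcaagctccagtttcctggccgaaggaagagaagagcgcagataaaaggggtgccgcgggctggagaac
Nfkbiz (chr11:58251471-58251720, plus strand): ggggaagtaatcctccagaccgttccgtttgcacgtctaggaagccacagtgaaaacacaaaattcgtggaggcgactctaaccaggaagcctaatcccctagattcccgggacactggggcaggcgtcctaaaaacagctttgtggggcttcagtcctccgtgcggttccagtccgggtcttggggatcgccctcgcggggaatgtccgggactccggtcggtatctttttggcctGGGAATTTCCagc
The first base of the match lies 206 bases before the start in Tlr2, 13 in Nfkbiz, 74 and 54 in Cxcl2, and 102 in Cxcl1, where it reads on the opposite strand. Cxcl1 and Cxcl6 also hold a run that reads as the motif on either strand with a shift of 1 base, which starts 84 and 88 bases before the start and counts as 2 overlapping matches. A match is only a description of these letters.

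Genes of lipid mediators moved in both directions. Of 10 eicosanoid enzymes tested, 2 rose and 8 fell, with a median log2FC of −0.77. Ptgs2, the inducible cyclooxygenase of prostaglandin synthesis, was at 632, 637 and 609 CPM with TLs and 8.77, 8.71 and 8.01 CPM with α-GalCer, while Ptgs1, the constitutive enzyme of the same step, was at 121, 120.1 and 118 CPM and 230.0, 237 and 243 CPM. The pair thus moved in opposite directions, by 6.202 (SE 0.071) and −0.98 (SE 0.049). Hpgds, the prostaglandin D synthase of blood cells, rose by 1.58 (SE 0.15). The leukotriene enzymes fell, Alox5 by a log2FC of −0.82 (SE 0.061) and Lta4h by one of −0.72 (SE 0.052), as did Cyp2s1, a cytochrome P450 gene, which was 6.03-fold lower (log2FC −2.59, SE 0.11) at 8.59, 9.32 and 11.9 CPM against 60.4, 58.3 and 60.4 CPM.

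Receptors of lipids and metabolites divided evenly, with 8 of 17 higher, 8 lower and 1 not called. Adora2a, the gene of an anti-inflammatory adenosine receptor, was at 203, 221 and 207 CPM with TLs and 30.8, 24.05 and 27.1 CPM with α-GalCer, and Hcar2, the receptor of niacin and β-hydroxybutyrate, at 187, 179 and 184 CPM and 25.3, 26.2 and 26.8 CPM. These were 7.70-fold (log2FC 2.94, SE 0.10) and 7.02-fold (log2FC 2.81, SE 0.059) differences. Cmklr1, a receptor of chemerin, rose by 1.65 (SE 0.068), Gpr84, which binds medium-chain fatty acids, by 1.55 (SE 0.081), and Ptafr, the receptor of platelet-activating factor, by 0.58 (SE 0.047). Cysltr1, the receptor of cysteinyl leukotrienes, fell from 7.38, 7.35 and 6.27 CPM to 2.17, 1.17 and 1.12 CPM (−2.20, SE 0.35), and the ADP receptor gene P2ry12, named after its values were seen, had a log2FC of −3.61.

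Genes of proteases that cut the extracellular matrix differed widely. Of 17 matrix proteases and inhibitors tested, 12 rose, 4 fell and 1 was not called, with a median log2FC of 1.59. Mmp13, a collagenase, was at 208, 204 and 182 CPM with TLs and 0.407, 0.762 and 1.09 CPM with α-GalCer, and Mmp3, stromelysin 1, at 64.8, 70.3 and 58.9 CPM and 1.39, 0.925 and 0.708 CPM. Both were low with α-GalCer, with log2FC of 8.01 (SE 0.20) and 6.001 (SE 0.26). Mmp9, a gelatinase, was well expressed in both groups, at 914, 944 and 954 CPM and 74.7, 80.7 and 67.8 CPM (3.65, SE 0.074), and Mmp14, a membrane-bound protease, rose by 1.57 (SE 0.067). Serpinb2, the plasminogen activator inhibitor PAI-2, was at 199.8, 212 and 190.3 CPM with TLs and 2.21, 2.61 and 2.72 CPM with α-GalCer (log2FC 6.31, SE 0.18), whereas Plau, the plasminogen activator urokinase that it inhibits, was at 18.8, 17.6 and 18.01 CPM and 57.5, 63.1 and 60.7 CPM (log2FC −1.74, SE 0.074). F3, which encodes tissue factor, the starter of coagulation, rose 36.7-fold (log2FC 5.20, SE 0.20), from 2.96, 4.90 and 3.21 CPM to 133, 144 and 132 CPM.

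Glucose uptake and glycolysis genes were mostly higher with TLs. Of 21 tested genes of glycolysis and the hypoxia response, 16 rose, 1 fell and 4 were not called, with a median log2FC of 0.85. Slc2a1, the glucose transporter GLUT1, was at 703, 729 and 766 CPM with TLs and 267, 255 and 268 CPM with α-GalCer, and Slc16a3, the lactate exporter MCT4, at 292, 301 and 321 CPM and 95.1, 82.8 and 90.1 CPM. Each lay clear of the other group, with log2FC of 1.48 (SE 0.056) and 1.77 (SE 0.083). Slc2a6, another hexose transporter, rose by 1.79 (SE 0.068), Hif1a, the oxygen-sensitive transcription factor, by 1.40 (SE 0.068), Egln3, a prolyl hydroxylase that marks it for destruction, by 1.36 (SE 0.098), and Pfkfb3, which makes the activator of phosphofructokinase, by 1.07 (SE 0.058).

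Around the tricarboxylic acid cycle and amino acids, single genes stood out. Acod1, which diverts cis-aconitate to itaconate, was at 261, 264 and 259 CPM with TLs and 9.64, 12.7 and 9.10 CPM with α-GalCer, a 24.9-fold difference (log2FC 4.64, SE 0.12), while 2 isocitrate dehydrogenase genes fell, with log2FC of −0.81 (SE 0.057) for Idh1 and −0.73 (SE 0.057) for Idh2. Another of that name, Idh3a, named after its value was seen, was not called (−0.21). Of 10 tested genes of the cycle, 1 rose, 4 fell and 5 were not called. Of 16 genes of arginine and amino acid handling, 13 rose, 1 fell and 2 were not called. Arg1, which splits arginine to ornithine and urea, was at 606, 638 and 606 CPM and 110.0, 104 and 109 CPM (2.52, SE 0.075), Ass1, which rebuilds arginine from citrulline, rose by 1.73 (SE 0.089), and Slc7a8, a transporter of neutral amino acids, by 1.68 (SE 0.076). The member that fell, the amino acid transporter gene Slc36a2, was at 0.517, 0.274 and 0.140 CPM and 2.56, 4.03 and 2.89 CPM, with a log2FC of −3.25 (SE 0.36) that was −3.88 without TL replicate 1.

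Targets of NRF2, the factor of the antioxidant response, rose in 11 of 14 tested, fell in 2 and were not called in 1. Sod2, the mitochondrial superoxide dismutase, was at 2723, 2916 and 2919 CPM with TLs and 640.3, 603 and 645 CPM with α-GalCer (2.18, SE 0.072). Slc7a11, the cystine importer, rose by 1.46 (SE 0.10), Txnrd1, thioredoxin reductase, by 1.05 (SE 0.046), Hmox1, heme oxygenase 1, by 0.72 (SE 0.063), and Nqo1, a quinone reductase, by 0.66 (SE 0.069). Sod2 is also a known target of NF-κB.

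Genes of lipid synthesis were mostly lower with TLs. Of 13 fatty acid synthesis genes tested, 9 fell, 2 rose and 2 were not called, with a median log2FC of −0.61. Fads1, the Δ5 desaturase that makes arachidonic acid, was at 9.93, 9.12 and 8.34 CPM with TLs and 25.6, 22.2 and 26.8 CPM with α-GalCer (−1.44, SE 0.11), and the stearoyl-CoA desaturase gene Scd2 at 305, 279 and 281 CPM and 537, 523 and 527 CPM (−0.88, SE 0.070). Acss2, which activates acetate, fell to 5.79, 7.33 and 7.22 CPM from 19.5, 15.1 and 16.2 CPM (log2FC −1.32, SE 0.16). The exceptions were Elovl4, an elongase of very long chains, which rose by 1.30 (SE 0.10), and Fads3, a desaturase gene named after its value was seen (0.95). Of 10 genes of cholesterol synthesis, 5 fell, 0 rose and 5 were not called, with Dhcr7, which makes the last step to cholesterol, at 16.7, 19.1 and 15.5 CPM against 37.4, 32.05 and 35.8 CPM (−1.04, SE 0.094) and Cyp51, lanosterol demethylase, at −0.45 (SE 0.059).

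Genes of fatty acid breakdown and activation were divided. Of 14 tested, 7 fell, 3 rose and 4 were not called. Hadh and Hsd17b4, enzymes of mitochondrial and peroxisomal β-oxidation, had log2FC of −0.85 (SE 0.084) and −0.72 (SE 0.064), and Ppargc1b, a coactivator of mitochondrial genes, −1.41 (SE 0.21). Acsl1 and Acsl4, acyl-CoA synthetases that also serve phospholipid remodelling, rose by 0.95 and 0.87 (SE 0.053 and 0.065), and the nuclear receptor gene Ppard by 0.68 (SE 0.068).

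For sterol export the transporters parted. Abca1, which loads cholesterol and phospholipids on apolipoprotein, was at 99.9, 91.1 and 93.1 CPM with TLs and 11.97, 13 and 10.4 CPM with α-GalCer (3.01, SE 0.14), while Abcg1, which passes cholesterol to mature lipoprotein particles, was at 111, 105 and 108 CPM and 235, 199.8 and 216 CPM (−1.004, SE 0.073). Both are known targets of the oxysterol receptor LXR. Ch25h, which makes 25-hydroxycholesterol, rose from 165, 190.4 and 187 CPM to 676, 718 and 707 CPM (1.95, SE 0.070), Gpr183, the receptor of a related oxysterol, rose by 0.74 (SE 0.057), and Pparg, a lipid-sensing nuclear receptor gene, was 2.28-fold lower (log2FC −1.19, SE 0.072). In all, 4 of 10 members of this list rose, 4 fell and 2 were not called.

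Sphingolipid and phospholipid genes moved in both directions. Of 13 sphingolipid genes, 5 rose, 4 fell and 4 were not called, near the shares of all named genes (37.8% higher and 37.1% lower). With upper quartile normalization 7 were lower, and without TL replicate 3 only 2 were. Degs1, which makes ceramide from dihydroceramide, rose by 0.62 (SE 0.056), Sgms1, sphingomyelin synthase, by 0.69 (SE 0.062), and Ugcg, which makes glucosylceramide, by 0.59 (SE 0.062). Cerk, which phosphorylates ceramide, was 2.19-fold lower (log2FC −1.13, SE 0.060), at 87.5, 80.9 and 87.1 CPM against 185, 189 and 186 CPM, and St3gal5, which makes the ganglioside GM3, had −0.50 (SE 0.058). Of 22 phospholipid genes, 7 rose, 10 fell and 5 were not called. Plpp3, which dephosphorylates lysophosphatidic acid, rose by 2.06 (SE 0.073), and Gpat3 and Agpat4, acyltransferases of glycerophospholipids, by 1.13 and 0.96 (SE 0.065 and 0.065).

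Lysosomal genes fell more often than they rose. Of 38 hydrolases and membrane proteins tested, 24 fell, 2 rose and 12 were not called, with a median log2FC of −0.46 and a summed level of 10831 to 11011 CPM in the TL libraries against 12950 to 13225 CPM in the α-GalCer libraries. Pla2g15, the lysosomal phospholipase A2, was at 27.2, 30.02 and 29.6 CPM and 75.6, 71.8 and 83.4 CPM (−1.41, SE 0.080), and Naaa, which hydrolyses N-acylethanolamines, at 163, 171 and 157 CPM and 411, 398 and 423 CPM (−1.33, SE 0.059). Both lay far below the α-GalCer libraries, and Lipa of the CD1d list belongs to this group too. Ppt2, a thioesterase, had −1.09 (SE 0.086) and Cln8, a membrane protein of the endoplasmic reticulum that serves the transport of lysosomal enzymes, −0.82 (SE 0.071). Neu1, a sialidase, went the other way (0.77, SE 0.073), as did Acp2, an acid phosphatase gene named after its value was seen (0.44).

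**Figure D4:**
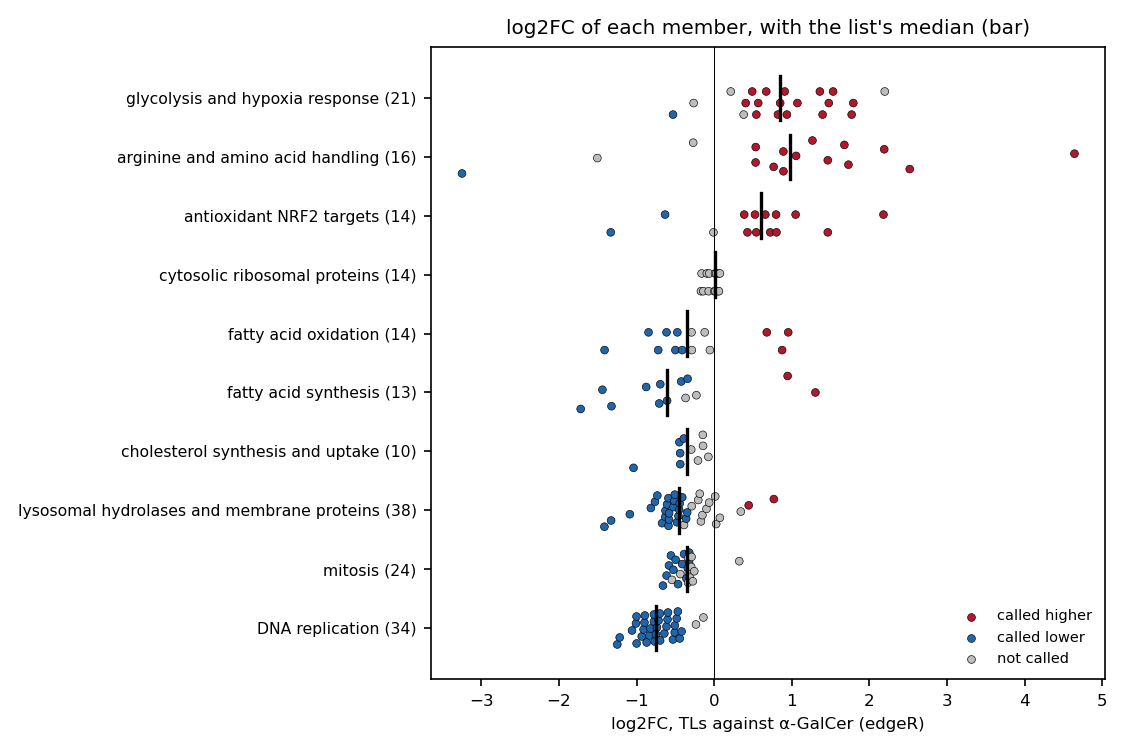
log2FC of TLs against α-GalCer (x axis) of each tested member of 10 lists (y axis, number tested in brackets), in red where called higher, blue where called lower and grey where not called, with the list's median as a bar. The median lies at 0.85 for glycolysis and the hypoxia response, near 0 for ribosomal proteins and at −0.74 for DNA replication.

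Genes of DNA replication that could be followed were mostly lower with TLs. Of 54 listed, 20 had no symbol and were not tested. Of 34 tested, 32 fell, 0 rose and 2 were not called, with a median log2FC of −0.74 and a summed level of 1200.3 to 1234 CPM with TLs against 1932 to 1996 CPM with α-GalCer. Mcm2, Mcm5 and Mcm6 encode subunits of the helicase that opens DNA at origins. Mcm6 was at 55.97, 58.1 and 56.1 CPM with TLs and 116, 118 and 121 CPM with α-GalCer (−1.06, SE 0.060), Mcm2 at 55.5, 61.7 and 59.9 CPM and 123, 112 and 120.2 CPM (−1.01, SE 0.064), and Mcm5 at 86.02, 85.5 and 85.2 CPM and 155, 145 and 154 CPM (−0.82, SE 0.051). The replicates of a group lay close together, and Mcm6 was at 103, 115 and 109 CPM in the vehicle control. Ung, which removes uracil from DNA, had −1.0 (SE 0.080), Dnmt1, the maintenance methyltransferase, −0.89 (SE 0.068), and Rpa1, which coats single-stranded DNA, −0.83 (SE 0.066). The members not called were Rfc1 (−0.23) and Atad2 (−0.14), named after their values were seen.

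Mitotic genes were lower by less. Of 24 tested, 13 fell, 0 rose and 11 were not called, with a median log2FC of −0.35, close to the fold threshold. The count of 13 was 22 with upper quartile normalization, and 7 without TL replicate 2, TL replicate 3 or α-GalCer replicate 2. Stmn1, which destabilises microtubules, was at 83.1, 86.4 and 85.99 CPM with TLs and 128, 129 and 146 CPM with α-GalCer (−0.66, SE 0.081), and Aurkb, a mitotic kinase, at 50.5, 52.7 and 53.5 CPM and 67.5, 67.1 and 70.3 CPM (−0.39, SE 0.060).

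The motif TTTNGCGC, a form of the site of E2F factors, which control S phase genes, was searched in the same windows on both strands. It was held by 1.28% of all 33469 windows, by 1.96% of the matched genes not called, by 1.58% of those called higher and by 3.91% of those called lower. In the DNA replication list 13 of 29 windows held it (44.8%), against 2 of 20 in the mitosis list. Those 13 genes were all called lower and are among the 21 of 537 genes called lower that held it. The share of the genes called lower thus rests largely on this list. For the helicase genes the 250 bases before the start, again with each match in capitals, were:
Mcm2 (chr4:122918095-122918344, minus strand): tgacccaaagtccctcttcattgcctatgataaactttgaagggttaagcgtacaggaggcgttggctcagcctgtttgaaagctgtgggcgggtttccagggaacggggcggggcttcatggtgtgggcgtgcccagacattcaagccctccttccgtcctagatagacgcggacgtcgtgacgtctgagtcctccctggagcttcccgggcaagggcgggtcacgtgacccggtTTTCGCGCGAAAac
Mcm5 (chr19:13488563-13488812, plus strand): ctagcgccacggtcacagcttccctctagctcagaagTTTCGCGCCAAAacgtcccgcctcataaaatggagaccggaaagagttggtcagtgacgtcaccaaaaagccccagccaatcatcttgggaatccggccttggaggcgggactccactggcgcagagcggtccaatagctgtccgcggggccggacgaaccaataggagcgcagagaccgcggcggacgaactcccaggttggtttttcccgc
Mcm6 (chr13:42404353-42404602, minus strand): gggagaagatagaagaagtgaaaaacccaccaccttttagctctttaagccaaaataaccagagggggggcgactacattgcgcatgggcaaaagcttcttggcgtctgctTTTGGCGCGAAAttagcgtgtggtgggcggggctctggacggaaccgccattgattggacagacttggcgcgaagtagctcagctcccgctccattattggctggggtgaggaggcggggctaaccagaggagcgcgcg
Each holds a pair of overlapping matches on opposite strands, 4 bases apart, which begin 14, 213 and 139 bases before the start. The TATA motif TATAAA was searched on both strands as well, and none of the 3 motifs contains another. It was in 7 of 16 windows of the interleukin and growth factor list, 4 of 10 chemokine windows and 0 of 29 of the DNA replication list. Of all windows 14.2% held it, and of the matched genes not called 7.54%.

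Uptake receptors moved in both directions. Of 25 tested, 10 rose, 11 fell and 4 were not called, near the shares of all named genes (37.8% higher and 37.1% lower). Among the C-type lectins, Clec4a was at 0.362, 0.411 and 0.420 CPM with TLs and 3.83, 4.08 and 4.58 CPM with α-GalCer (−3.37, SE 0.23), and Clec10a, a receptor of galactose-type sugars, at 15.2, 14.4 and 13.3 CPM and 52.5, 52.5 and 59.7 CPM (−1.94, SE 0.091). Mrc1, the mannose receptor, was 2.12-fold lower (log2FC −1.09, SE 0.071), and Axl and Mertk, receptors for the uptake of apoptotic cells, had log2FC of −0.96 (SE 0.058) and −0.85 (SE 0.11). Siglec10 and Siglec5, which bind sialic acid and inhibit, rose 4.04-fold (log2FC 2.01, SE 0.052) and 4.53-fold (log2FC 2.18, SE 0.069). The integrin genes Itgam and Itgax, which encode CD11b and CD11c, rose by log2FC of 0.76 and 0.75 (SE 0.072 and 0.063).

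Of 24 genes of migration and adhesion, 15 rose, 7 fell and 2 were not called. Ccr7, the receptor that brings dendritic cells to lymph nodes, was at 178, 174 and 174 CPM with TLs and 92.9, 103 and 94.3 CPM with α-GalCer (0.86, SE 0.065). Cd44, the hyaluronan receptor, was at 2136, 2059 and 2143 CPM and 1117, 1193 and 1100.1 CPM (0.89, SE 0.048), and Marcks, which ties the membrane to actin, rose by 1.51 (SE 0.092). Itgb5, an integrin subunit of the vitronectin receptor, fell to 0.672, 0.617 and 0.911 CPM from 3.95, 3.43 and 2.72 CPM, a 4.58-fold difference (log2FC −2.19, SE 0.24).

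For antigen presentation by MHC molecules few genes could be followed. Of the MHC class II list 3 genes had a symbol and all 3 fell, Lgmn, the protease legumain (−0.58, SE 0.061), Ifi30, the lysosomal thiol reductase (−0.57, SE 0.092), and Ciita, the master regulator of class II genes (−0.35, SE 0.087, adjusted p = 0.00893 in edgeR), whose call was lost without any 1 TL or α-GalCer library, without vehicle replicate 3, with RLE normalization, with a filter of 10 counts in every library and in limma-voom, at −0.38 to −0.30. Of 5 class I genes 4 were not called, among them B2m, the light chain, at 1813, 1764 and 1759.8 CPM and 1566, 1781 and 1695 CPM. RT1-S3, a class I gene that belongs to a family of like sequences, had 0.40 (SE 0.082), and its call was lost without TL replicate 2 or 3, at 0.39 and 0.38.

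The type I interferon response moved in both directions, with 5 of 12 genes higher, 4 lower and 3 not called. Rsad2, the antiviral protein viperin, was at 13.4, 12.96 and 14.3 CPM with TLs and 3.20, 4.52 and 3.49 CPM with α-GalCer (1.86, SE 0.16), Oasl, a relative of oligoadenylate synthetases, rose by 1.71 (SE 0.080), and Gbp2, a guanylate-binding protein, by 0.89 (SE 0.074). Ifi47, an interferon-induced GTPase, was 2.03-fold lower (log2FC −1.02, SE 0.058), at 51.4, 48.3 and 47.7 CPM against 98.7, 102 and 98.7 CPM, and Epsti1 had −0.79 (SE 0.090).

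Stress genes of the endoplasmic reticulum moved in both directions or not at all past the thresholds. Of 13 tested, 6 rose, 1 fell and 6 were not called. Ppp1r15a, the phosphatase subunit GADD34 that restores translation, rose by 1.05 (SE 0.091), the transcription factor gene Atf3 by 0.95 (SE 0.084) and Chac1, which degrades glutathione, by 0.77 (SE 0.14). The chaperone genes Calr and Canx were not called, with log2FC of 0.16 and 0.13, and Xbp1, the factor that enlarges the secretory machinery, was at 459.6, 449 and 447 CPM with TLs against 671, 706 and 673 CPM (−0.60, SE 0.048).

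Among the genes with the deepest falls were regulators and transporters outside these lists. Id3, an inhibitor of helix-loop-helix factors and a known target of BMP signals, was at 7.19, 9.25 and 8.13 CPM with TLs and 32.9, 32.8 and 38.1 CPM with α-GalCer, and Smad6, an inhibitor of the same signals, at 0.672, 0.548 and 0.771 CPM and 3.25, 2.72 and 4.52 CPM. Their log2FC were −2.08 (SE 0.11) and −2.39 (SE 0.32). Aqp3, a channel for water and glycerol, fell from 16.8, 15.02 and 16.1 CPM to 3.10, 2.26 and 3.99 CPM (−2.36, SE 0.17), Slco2b1, a carrier of organic anions, was 4.92-fold lower (log2FC −2.30, SE 0.16) and Slc46a3, a lysosomal transporter, 4.59-fold lower (log2FC −2.20, SE 0.28). Mnda, an interferon-inducible nuclear protein gene of myeloid cells, had −2.12 (SE 0.090), the ETS factor gene Etv1 −2.24 (SE 0.19), and the ubiquitin ligase gene Trim9 −2.43 (SE 0.17). Tmem236, at 0.569, 0.0685 and 0.350 CPM against 3.66, 2.83 and 2.72 CPM, had −3.12 (SE 0.44), or −3.83 without TL replicate 1.

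By change in CPM rather than by fold, the largest falls included abundant genes of myeloid cells. Gpnmb, a lysosome-associated glycoprotein, was at 4976, 4996 and 4931 CPM with TLs and 7742, 7849 and 7684 CPM with α-GalCer, and Spp1, the secreted protein osteopontin, at 1916, 1973 and 1779 CPM and 2958, 3437 and 2962 CPM. Their log2FC were −0.64 (SE 0.036) and −0.72 (SE 0.078). Sdc3, a heparan sulfate proteoglycan, had 371, 347 and 371 CPM against 766, 702 and 738 CPM (−1.02, SE 0.065), and Mfge8, which bridges apoptotic cells to phagocytes, 1533, 1528 and 1545 CPM against 1941, 2006 and 2036 CPM (−0.38, SE 0.056).

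**Figure D5:**
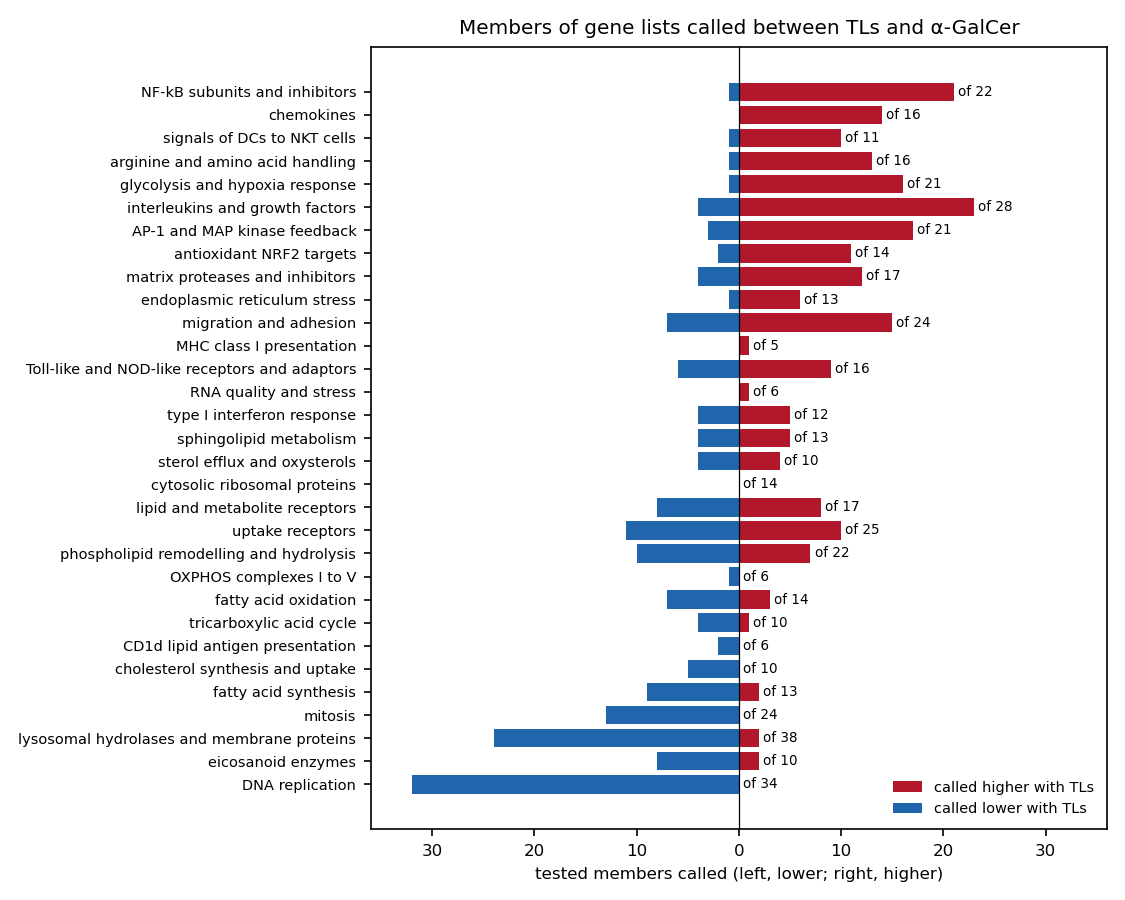
Tested members called lower (left, blue) and higher (right, red) with TLs than with α-GalCer (x axis, number of genes) in each gene list of 5 or more tested members (y axis), with the number tested beside the bar. The list named NF-κB subunits and inhibitors, which also holds activators, lies at one end, with 21 of 22 higher. DNA replication lies at the other, with 32 of 34 lower.

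Markers of cell types were checked as far as they had a symbol. Of 8 markers of dendritic cells in general Itgax alone could be followed, at 683, 642 and 672 CPM with TLs and 415, 403 and 369 CPM with α-GalCer, and the label was not checked further. Of 7 markers of macrophages and monocytes 4 rose and 3 fell, and their summed level was 3388 to 3439 CPM with TLs and 1871 to 1924 CPM with α-GalCer. Cd14 gave most of it with TLs, at 2388, 2436 and 2436 CPM, but not with α-GalCer, at 408, 465 and 396 CPM. Adgre1, the gene of F4/80, rose by 1.86 (SE 0.086), while Csf1r, the receptor of M-CSF, had −0.63 (SE 0.046). The neutrophil markers gave 1 higher, 1 lower and 1 not called: Lcn2, lipocalin 2, was 29.3-fold higher (log2FC 4.87, SE 0.14), Cebpe, a factor of granulocyte precursors, had −0.73 (SE 0.13), and Mpo, myeloperoxidase, was at 435, 433 and 427 CPM and 497, 468 and 488 CPM. No marker of T, NKT, NK, stromal or erythroid cells had a symbol. Markers of conventional dendritic cells of type 1 gave 2 lower and 1 not called, with Itgae, the integrin CD103, at −0.92 (SE 0.11) and the factor Irf8 at −0.32 (SE 0.069), a call lost without any 1 of the TL libraries or of α-GalCer replicates 1 and 3 (−0.33 to −0.26), and those of type 2 gave 1 higher and 2 lower, Itgam, Clec4a and Clec10a, described above. Of plasmacytoid markers Spib was not called (1.09) and Runx2 was lower (−0.51, SE 0.13), a call lost without any 1 TL or α-GalCer library or vehicle replicate 1 (−0.58 to −0.43), with RLE normalization, a filter of 10 counts or the replicate block, and in limma-voom. Mast cells had 1 marker, Gata2 (−0.70, SE 0.11), and B cells 1, Fcrla (1.02, SE 0.099). The part of such cells in the results was not tested.

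Of 14 cytosolic ribosomal protein genes, 0 were called, with log2FC from −0.17 to 0.07, and of 5 mitochondrially encoded genes, 0 were called, with log2FC from −0.01 to 0.10. Hspa8, a constitutive chaperone, rose by 0.50 (SE 0.066). Of 6 nuclear genes of the respiratory chain and ATP synthase, 1 was called, Ndufv3, a subunit of complex I (−0.43, SE 0.10), not called with the replicate block or without any 1 TL or α-GalCer library (−0.45 to −0.37). The others lay between −0.35 and −0.13.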

How the data were processed

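Poly(A)-selected RNA of 9 BMDC samples (3 each of vehicle, α-GalCer and TLs) was sequenced in pairs of reads. Per the methods the authors used fastp for cleaning, HISAT2 for mapping (build Rnor_6.0) and featureCounts for counting per Ensembl gene, and they deposited raw counts. The settings for strand and multi-mapping reads are not given in the sources used here, so reads of antisense neighbours and near-identical copies cannot be separated.

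Counts were analysed with edgeR 4.0.16 (R 4.3.3) by filterByExpr, TMM normalization and the quasi-likelihood F-test with Benjamini-Hochberg adjustment over 12602 genes. The fit held all 9 libraries, which share one estimate of the spread. The SE is the absolute log2FC over the square root of F, and the 95% interval follows from it. CPM use the TMM library size. The code was tested on simulated data. Intervals and floors of counts cover counting error only, and amplified reads are not independent molecules.

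Ensembl IDs were named from the ID and name columns of a shortened supplementary table of the study, which lists genes it called between TLs and the vehicle control (1981 names), and its fold changes and p-values were not used. The genes and lists were chosen with earlier results of these data known. Named were the 20 highest and 20 lowest log2FC among named DEGs without overlap whose log2 CPM averaged 1 or more; the 10 largest rises and falls in CPM; up to 6 members of each list with the smallest adjusted p; all tested members of the CD1d, NKT signal and receptor lists; and 4 IDs without a symbol. 1 gene of the CD1d list is counted but not reported here. Other genes are marked as named after their values were seen.

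Alternatives were RLE and upper quartile factors, robust estimation, other filters and thresholds, 6 libraries, replicate blocks, single libraries left out, DESeq2 1.42.0 and limma 3.58.1.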

Additional observations from a re-analysis of the deposited data

How the results depend on the processing

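The 1241 higher and 1321 lower genes were 1295 and 1257 with RLE normalization, 1000 and 1742 with upper quartile normalization, 1269 and 1378 with robust estimation, 1322 and 1282 without the filter, 1269 and 1239 with at least 10 counts in every library, 1527 and 1414 when 6 libraries were fitted, 1448 and 1440 in DESeq2 and 1266 and 1270 in limma-voom. At an adjusted p under 0.05 with no minimum fold change they were 2030 and 2247. Upper quartile normalization moved the median log2FC of all genes from −0.02 to −0.09, and 36.5% of its calls were higher, against 48.4%. No called gene changed direction. Leaving out single libraries gave 995 to 1499 higher and 891 to 1590 lower genes, the most without vehicle replicate 2. At a log2FC of at least 1 there were 339 to 378, and at −1 or below 237 to 308. Vehicle replicate 2 scored −32.6 on the second component of all 9 libraries, where vehicle replicates 1 and 3 scored 15.6 and 14.9. That library is outside the comparison but enters the shared estimate of the spread. Without it 3089 genes were called, against 2562. Other values that moved were the log2FC of Ccl20 (8.79), which was 10.61 without α-GalCer replicate 2 and 8.17 in limma-voom, and that of Il10 in limma-voom (8.93). Depth limited genes under 1 CPM with α-GalCer, whose calls, 57 higher and 7 lower of 906, are set in part by the filter.

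Replicate numbers are shared by the groups, but the labels do not say that they pair libraries. Deviations of same-numbered TL and α-GalCer libraries correlated at 0.01, −0.06 and 0.04, and not every library correlated best with its own number. With the replicate block, 1169 genes were higher and 1163 lower, of which 2281 were among the 2562 called without it, and with the block in 6 libraries the counts were 1472 and 1294. Among the genes named, the block lost the calls of Ndufv3, a complex I subunit gene, and Runx2, and in 6 libraries that of Tnfsf18.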

Other observations

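Genes without a symbol gave large differences as well. ENSRNOG00000057443 was at 122, 161 and 117 CPM with TLs and 0.523, 0.653 and 0.272 CPM with α-GalCer, a log2FC of 8.09 (SE 0.26), and ENSRNOG00000006320 at 17.1, 20.5 and 20.9 CPM and 0.116, 0.326 and 0.163 CPM, one of 6.53 (SE 0.26). In the other direction, ENSRNOG00000049330 was at 0.155, 0.411 and 0.420 CPM and 6.80, 8.05 and 5.39 CPM, with a log2FC of −4.39 (SE 0.64), and ENSRNOG00000050146 at 0.569, 0 and 0.0701 CPM and 11.2, 0.816 and 15.8 CPM, with one of −5.21 (SE 1.12). The first pair was well above the α-GalCer libraries, while ENSRNOG00000050146 varied widely within each group, with a log2FC of −7.78 without TL replicate 1, and its call was lost without TL replicate 2 or 3 (−4.70 and −4.84), without α-GalCer replicate 1 or 3 (−5.06 and −4.58), with robust estimation and in limma-voom. The call of ENSRNOG00000049330 was lost in limma-voom as well.

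Some further genes, within and outside the lists counted above, rose too. Wfdc21, which encodes a small secreted protein with a protease inhibitor fold, was at 4.81, 7.33 and 6.03 CPM with TLs and 0.232, 0.381 and 0.109 CPM with α-GalCer (4.61, SE 0.41). Gch1, the first enzyme of tetrahydrobiopterin synthesis, rose by 1.27 (SE 0.074) and Bcat1, a branched-chain aminotransferase, by 1.06 (SE 0.063). Both are counted above with arginine and amino acid handling. The semaphorin genes Sema7a and Sema4a, counted with migration and adhesion, rose by 1.09 and 0.75 (SE 0.085 and 0.046).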
